A study of Mus musculus with 6 samples.

Results

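The genes of the 4 Hox clusters were compared by cluster and paralogue number over 6 mouse tumour cell lines. Members were all genes whose symbol is Hox, a cluster letter from a to d and a paralogue number, which gave 39 of the 55401 genes in the files, antisense and opposite-strand transcripts being left out. RNA was sequenced from cultured lines that had been grown out of primary tumours of C57BL/6 mice after mechanical mincing and enzymatic digestion. Lines KO1, KO3 and KO7 came from hosts labelled Rag1KO, and lines WT2, WT4 and WT6 from hosts labelled WT, with no treatment named for either group. RAG1 cuts DNA during V(D)J recombination, so Rag1KO hosts have no mature T or B cells but still have natural killer and myeloid cells. The series asks how growth in immunodeficient or immunocompetent hosts marks the tumour cells. The labels give neither the tumour type nor the host's age or sex, nor do they say that the lines of a group came from separate animals. The p-values therefore measure spread between these 6 cultures only, which may be technical.

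Hox genes encode homeodomain transcription factors and lie in 4 clusters that arose by duplication of an ancestral one. Genes at the same relative place in each cluster form a paralogue group, and low numbers are used anteriorly and early in the embryo, high numbers posteriorly and late. Adult mesenchymal cells such as fibroblasts keep much of the Hox pattern of their body site in culture, through Polycomb repression of silent genes and Trithorax-dependent activity of the others. In the text, paralogues 1 to 3 are called anterior, 4 to 8 central and 9 to 13 posterior.

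Libraries held 55409583 to 62998051 reads. Deposited values are normalized counts, that is whole reads divided by 1 size factor per library. A member was called expressed at 1 CPM or more, CPM being reads scaled to library size, which is 55.0 to 64.2 normalized counts. A count of 0 allows up to 3 reads, or 2.64 to 3.48 normalized counts, and such limits cover counting error only. The defining markers Cd3e, Adgre1 and Itgam of leukocytes, Epcam of epithelium, Emcn of endothelium, Tyr, Tyrp1 and Dct of melanocytes, and Myod1, Myog, Myf5 and Pax7 of skeletal muscle had at most 3 reads in every line. Other markers on these lists were read: Lyz2 and Csf1r of leukocytes reached 1493 normalized counts in KO1 and 429 in KO3, Tek of endothelium 1243 in KO7, Cdh1 of epithelium 158 in WT4, Mitf of melanocytes 2149 in WT4, Sox10 of neural crest 323 in KO7 and Pax3 of muscle precursors 2410 in WT6. Summed over the list, leukocyte markers were at 237 to 1638 in lines from Rag1KO hosts and 6.16 to 619 in lines from WT hosts, endothelial ones at 212 to 1483 and 27.3 to 1010, and epithelial ones at 13.6 to 49.8 and 9.68 to 347. Melanocyte and neural crest markers were at 711 to 1771 in lines from Rag1KO hosts and 639 to 2254 in lines from WT hosts, and muscle markers at 277 to 790 and 56.0 to 2412. The part of such cells in the Hox values was not tested. The summed level of 10 mesenchymal markers ranged from 1.61e+06 to 2.56e+06 normalized counts in lines from Rag1KO hosts and from 4.98e+05 to 2.38e+06 in lines from WT hosts. Of these 10 markers 5 were lowest in WT6. Among them Col1a1, a main collagen chain of fibroblasts, was at 206 normalized counts there and at 478320 or more in every other line, and Thy1 was at 0.88 against 29802 or more. Others were within the range of the other lines, such as Col3a1 at 126010 in WT6 and Pdgfra at 16592. These markers were picked after their values were seen. The labels name no cell type, and the part of cell identity in the Hox differences of WT6 was not tested. Xist, the transcript of the inactive X, was at 1.94 to 15.3 normalized counts in lines from Rag1KO hosts and at 59775, 32733 and 5.28 in WT2, WT4 and WT6, so the sex of the cells is not balanced between the groups. Rag1 had 39.3, 126 and 177 normalized counts in KO1, KO3 and KO7 and 0 in each line from WT hosts, and the files do not say which part of the gene these reads cover. In such bulk samples, fewer cells that use a gene and less RNA per cell cannot be told apart.

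KO1, KO3, KO7, WT2 and WT4 shared most of 1 Hox profile and WT6 had another. Expressed members numbered 28, 24 and 24 in KO1, KO3 and KO7, and 23, 22 and 10 in WT2, WT4 and WT6. Of the 39 members, 28 were expressed in at least 1 line. A set of 8 was expressed in all 6 lines, namely Hoxb2, Hoxb3, Hoxb4, Hoxb6, Hoxb7, Hoxb8, Hoxc4 and Hoxc6, all of them anterior or central and all in HoxB or HoxC. A set of 12 was expressed in every line but WT6, among them Hoxa5, Hoxa9, Hoxa10, Hoxb5, Hoxc9, Hoxc10 and Hoxc13. In WT6, Hoxb5 and Hoxc5 of this set lay just under the threshold, at 0.83 and 0.80 CPM (52 and 50 reads). Hoxb8, in the set of 8, lay just above it there, at 1.04 CPM (65 reads). The remaining 8 expressed members differed among the other 5 lines as well. Any 2 lines other than WT6 differed in whether 2 to 6 members were expressed, and WT6 differed from each other line in 16 to 18. Hoxb1, Hoxd1, Hoxd11 and Hoxd12 had 0 reads in all lines.

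**Figure D1:**
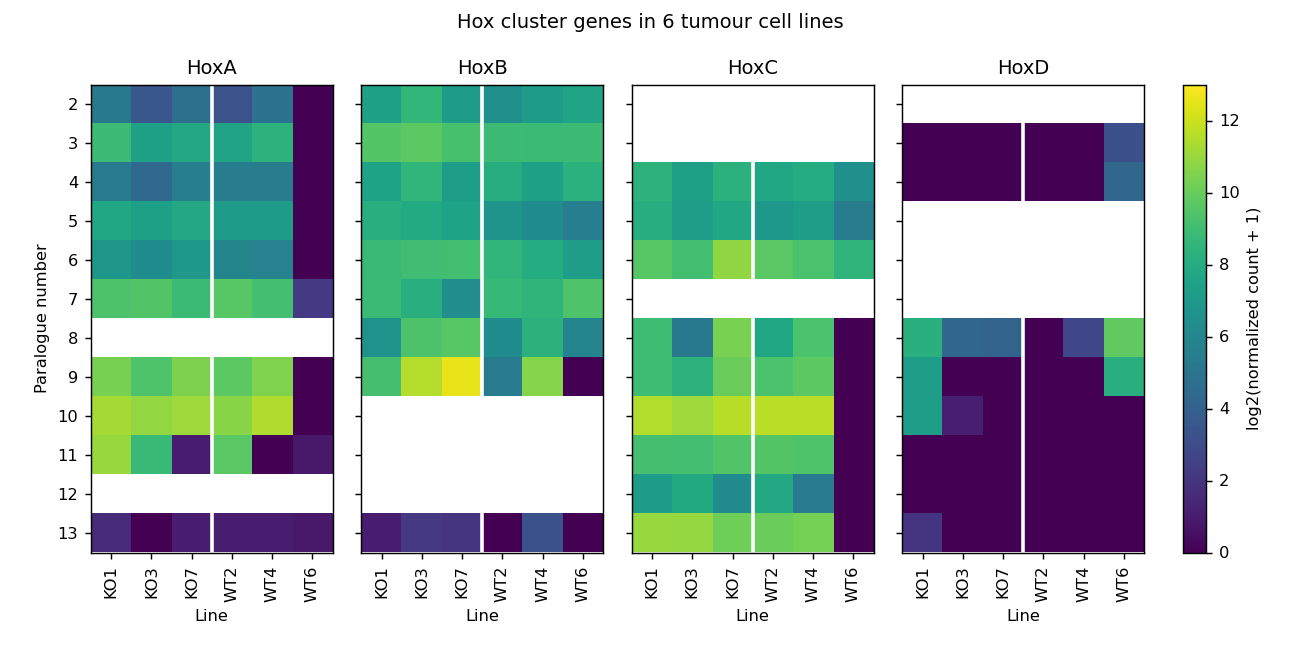
Level of the Hox cluster genes of paralogue numbers 2 to 13, as log2(normalized count + 1) in colour. Rows are paralogue numbers and columns are lines, in each of the 4 clusters. A white line parts lines from Rag1KO hosts and lines from WT hosts. White cells are paralogue numbers that the mouse cluster lacks. HoxA up to Hoxa10 and the posterior part of HoxC are filled in the first 5 lines and dark in WT6. Hoxa11 is filled in KO1, KO3 and WT2 only, and Hoxa13 is dark in all lines. HoxD is filled from Hoxd8 to Hoxd10 in KO1 and at Hoxd8 and Hoxd9 in WT6.

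The HoxA cluster lies on the minus strand of chromosome 6, its posterior end with Hoxa13 at 52257694 to 52260880 in GRCm38, and was on in every line but WT6. Its 11 members summed to 7518, 4420 and 4802 normalized counts in KO1, KO3 and KO7, against 4751, 5578 and 6.16 in WT2, WT4 and WT6. On the anterior side, Hoxa3, needed for thymus and parathyroid formation, had 473, 173 and 226 normalized counts in lines from Rag1KO hosts, against 192, 336 and 0 in WT2, WT4 and WT6. It overlapped between the host groups and was at 0 in WT6 alone. Hoxa5, which patterns the lung and the neck, had 218, 166 and 232 normalized counts in lines from Rag1KO hosts and 144, 144 and 0 in lines from WT hosts. Hoxa6 had 115, 78.8 and 120, against 59.4, 54.1 and 0, and was the only member expressed in all 3 lines from Rag1KO hosts and in none from WT hosts; WT2 and WT4 lay just under 1 CPM. Hoxa7 had 666, 700 and 458, against 800, 550 and 3.52. The gene model of Hoxa3 overlaps those of Hoxa4, Hoxa5 and Hoxa6 on the same strand, and how the counter split shared reads is not stated. Hoxa2 and Hoxa4 stayed under 1 CPM everywhere, at 46.5 normalized counts or less, and Hoxa13, a gene of digits and the genital tract, had at most 2 reads.

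The posterior HoxA genes carried most of the cluster's level. Hoxa9, a regulator of blood stem cells, had 1293, 685 and 1370 normalized counts in KO1, KO3 and KO7, against 842, 1409 and 0 in WT2, WT4 and WT6. Hoxa10, which acts in lumbar vertebrae and the uterus, had 2468, 1914 and 2218, against 1667, 2834 and 0. In WT2, the lowest of the other lines for Hoxa10, its level was at least 631-fold that of WT6, where 3 reads is the limit. Hoxa11, a gene of the forearm and lower leg and of the kidney and uterus, had 2008, 446 and 0.97 normalized counts in KO1, KO3 and KO7, against 818, 0 and 0.88 in WT2, WT4 and WT6. It was thus high in KO1, KO3 and WT2 and at 1 read or less in KO7, WT4 and WT6, with both host groups split. Hoxa10 and Hoxa11 are neighbours whose starts lie 4.96 kb apart. The RefSeq sequences of the 250 bases before their starts are shown because the lines part between these genes (GRCm38.p6, minus strand; Hoxa10 chr6:52240855-52241104, Hoxa11 chr6:52245811-52246060). Motifs of core promoters (TATAAA), of the factor NF-Y (CCAAT) and of PBX with HOX (TGATNNAT) were searched on both strands, matches being shown in capitals, and neither window holds one.
Hoxa10: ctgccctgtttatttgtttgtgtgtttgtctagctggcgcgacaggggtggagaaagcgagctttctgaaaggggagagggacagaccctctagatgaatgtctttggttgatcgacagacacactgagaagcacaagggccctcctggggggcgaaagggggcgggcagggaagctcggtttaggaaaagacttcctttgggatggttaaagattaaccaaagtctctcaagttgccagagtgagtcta
Hoxa11: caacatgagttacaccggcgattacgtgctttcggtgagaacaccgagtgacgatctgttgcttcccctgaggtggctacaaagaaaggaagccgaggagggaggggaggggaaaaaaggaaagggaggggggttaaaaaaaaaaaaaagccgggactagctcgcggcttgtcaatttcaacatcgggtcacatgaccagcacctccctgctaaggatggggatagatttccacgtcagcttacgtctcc
The window of Hoxa11 has 52.0% GC and 13 CpG, and that of Hoxa10 has 51.6% GC and 7 CpG. RefSeq gives Hoxa10 another start, whose window at chr6:52234940-52235189 has 59.2% GC and 20 CpG and holds 1 match each to TATAAA and CCAAT. The files do not say which start was used.

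HoxB was the cluster with the most members expressed in WT6, 6 of its 10. It lies on the plus strand of chromosome 11 and its members summed to 2955, 6405 and 8476 normalized counts in KO1, KO3 and KO7, against 1865, 3418 and 1932 in WT2, WT4 and WT6. Hoxb2, which acts in the hindbrain, had 175, 389 and 139 normalized counts in lines from Rag1KO hosts, against 90.6, 143 and 194 in lines from WT hosts. Hoxb3 had 723, 855 and 589, against 475, 466 and 477, nearly level over the 3 lines from WT hosts. Hoxb4, known for expanding blood stem cells, had 183, 381 and 155, against 278, 171 and 312. WT6 was thus at or above the level of WT2 and WT4 for these anterior and central HoxB genes, and among expressed members it was the highest line for Hoxb7, Hoxd8 and Hoxd9. Hoxb7 had 464, 297 and 83.3 normalized counts in KO1, KO3 and KO7, against 416, 369 and 690 in WT2, WT4 and WT6.

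Hoxb5, Hoxb6, Hoxb8 and Hoxb9 differed between lines that otherwise shared their profile. Hoxb5, a gene of the enteric nervous system and the shoulder, had 298, 244 and 183 normalized counts in KO1, KO3 and KO7, against 107, 79.2 and 45.8 in WT2, WT4 and WT6, so the groups did not overlap. Hoxb6, active in lateral mesoderm, had 437, 525 and 538, against 379, 265 and 156, and again did not overlap. Hoxb8, which acts in the spinal cord and in myeloid progenitors, had 102, 663 and 788 in KO1, KO3 and KO7, against 78.6, 327 and 57.2 in WT2, WT4 and WT6. Hoxb9, which patterns the thoracic ribs, had 572, 3047 and 5999, against 41.3, 1589 and 0. Both genes were higher in KO3, KO7 and WT4 than in KO1, WT2 and WT6. Their starts lie 10.4 kb apart, Hoxb8 spanning 96281905 to 96285315 and Hoxb9 96271457 to 96276595. Hoxb13, a gene of the prostate and tail far upstream of the others, had at most 9 reads. The 250 bases before the start of Hoxb8 (RefSeq, GRCm38.p6, plus strand, chr11:96281655-96281904) are shown as the window of a gene expressed in all 6 lines, with the same motifs in capitals on either strand.
Hoxb8: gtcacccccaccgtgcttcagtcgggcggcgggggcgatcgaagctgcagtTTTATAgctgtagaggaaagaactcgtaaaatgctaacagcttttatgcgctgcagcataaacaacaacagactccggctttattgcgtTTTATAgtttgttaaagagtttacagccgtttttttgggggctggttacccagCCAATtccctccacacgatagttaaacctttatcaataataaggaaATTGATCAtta
It holds 2 matches to TATAAA, 1 to CCAAT and 1 to TGATNNAT. Of the 24 windows that RefSeq gave for 22 members, 4 held TATAAA, 14 held CCAAT and 4 held TGATNNAT, and among all 32851 windows of that length the shares were 12.4%, 33.9% and 7.68%. Such matches describe the letters and are not binding sites.

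**Figure D2:**
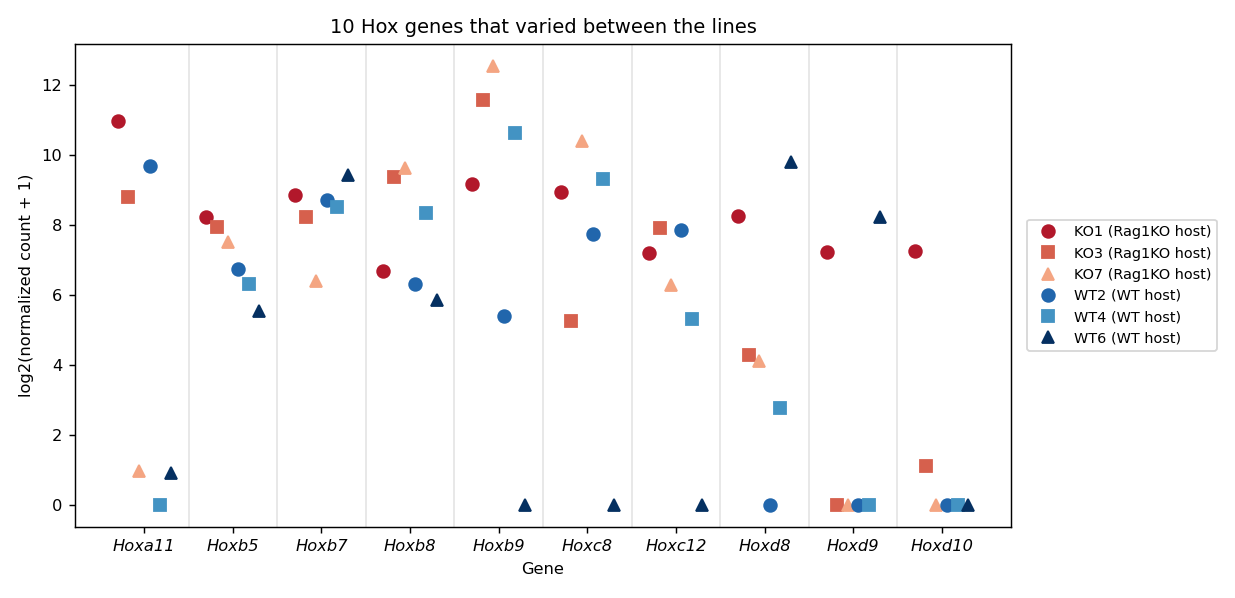
Level of 10 Hox genes, as log2(normalized count + 1), in each line, with reds for the 3 lines from Rag1KO hosts and blues for the 3 lines from WT hosts. The genes were chosen after their values were seen. Hoxb5 is the one gene here whose colours do not mix, while Hoxa11, Hoxc8, Hoxd8 and Hoxd9 are high in 1 or more lines and at or near 0 in others of the same host group.

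HoxC, on the plus strand of chromosome 15, was cut off after Hoxc6 in WT6. Per kb of exon, HoxC had the highest summed level of the 4 clusters in every line but WT6. In normalized counts not divided by length, HoxB was higher in KO3, at 6405 against 6133. The 9 HoxC members summed to 8005, 6133 and 9764 normalized counts in KO1, KO3 and KO7, against 7257, 7719 and 484 in WT2, WT4 and WT6. Hoxc4 had 338, 167 and 312 normalized counts in lines from Rag1KO hosts, against 212, 260 and 90.6 in WT2, WT4 and WT6. Hoxc5 had 274, 151 and 225, against 123, 148 and 44.0. Hoxc6, a gene of the thoracic region and mammary gland, had 775, 527 and 1849, against 822, 611 and 349. These 3 genes were lowest in WT6 but had 50 or more reads there. The next gene, Hoxc8, whose start lies 7.65 kb from that of Hoxc6, had 494, 37.1 and 1351 in KO1, KO3 and KO7, against 215, 637 and 0 in WT2, WT4 and WT6, and was also low in KO3. Every HoxC gene from Hoxc8 to Hoxc13 had 0 reads in WT6.

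The posterior HoxC genes were among the most abundant Hox transcripts of the other 5 lines. Hoxc10, active in the hindlimb and lumbar spinal cord, had 2866, 2156 and 3080 normalized counts in KO1, KO3 and KO7, against 3267, 3247 and 0 in WT2, WT4 and WT6. Hoxc13, needed for hair and nail formation, had 2046, 1970 and 1120, against 1028, 1238 and 0. In the lowest of the other lines, Hoxc10 was at least 817-fold and Hoxc13 at least 390-fold its level in WT6. Hoxc9, which defines thoracic motor neurons, had 493, 335 and 1047 normalized counts in lines from Rag1KO hosts, against 628, 856 and 0 in lines from WT hosts. Hoxc11 had 572, 552 and 702, against 732, 683 and 0. Hoxc12 was lower and less even, at 146, 239 and 77.5 in KO1, KO3 and KO7, against 230, 38.6 and 0 in WT2, WT4 and WT6. For none of these 5 genes did the host groups separate. The gene model of Hoxc5 overlaps those of Hoxc6, Hoxc8, Hoxc9 and Hoxc10, with the same limit on shared reads as in HoxA.

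HoxD, on the plus strand of chromosome 2, was silent or nearly so in 4 lines and partly on in KO1 and WT6. Its 9 members summed to 612, 19.7 and 16.5 normalized counts in KO1, KO3 and KO7, against 0, 5.79 and 1224 in WT2, WT4 and WT6. Hoxd8, at 74704615 to 74707933, had 308, 18.5 and 16.5 normalized counts in KO1, KO3 and KO7, against 0, 5.79 and 899 in WT2, WT4 and WT6. Hoxd9, a gene of the hindlimb and lumbar region, had 150, 0 and 0, against 0, 0 and 298. Hoxd10, which acts with it there, had 152, 1.16 and 0, against 0 in all 3 lines from WT hosts. KO1 and WT6 thus used Hoxd8 and Hoxd9, and Hoxd10 was expressed in KO1 alone. Of the lower-numbered genes, Hoxd3 and Hoxd4 had 0 reads in all lines but WT6, where they had 7.92 and 18.5 normalized counts. The gene models of Hoxd3 and Hoxd4 overlap on the same strand, with the same limit on shared reads as in HoxA. Hoxd13, the digit gene at the posterior end, had at most 3 reads. The window before Hoxd8 (RefSeq, GRCm38.p6, plus strand, chr2:74704365-74704614) is shown for the HoxD gene of highest level, with the same motifs in capitals, and it holds 1 match to CCAAT.
Hoxd8: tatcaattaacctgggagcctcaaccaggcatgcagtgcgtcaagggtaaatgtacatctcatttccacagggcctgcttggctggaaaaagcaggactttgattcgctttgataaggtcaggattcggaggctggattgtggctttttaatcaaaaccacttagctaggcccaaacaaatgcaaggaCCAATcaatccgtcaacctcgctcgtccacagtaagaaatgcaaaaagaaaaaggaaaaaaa

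Per kb of exon, posterior genes led in 5 lines and central genes in WT6. Posterior members took 67.7%, 68.1% and 67.9% of the summed Hox level per kb in KO1, KO3 and KO7, against 68.1%, 71.3% and 9.20% in WT2, WT4 and WT6. Central members took 26.97%, 25.3% and 29.1%, against 27.7%, 24.1% and 79.7%. The 5 lines with the shared profile therefore lay within 4 percentage points of each other for the posterior share, whichever host they came from. The member of highest level per kb was Hoxc10 in KO1, WT2 and WT4, at 1502, 1711 and 1701 normalized counts per kb. It was Hoxb9 in KO3 and KO7, at 1184 and 2331, and Hoxb7 in WT6, at 447.

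By paralogue number, groups 10 to 13 were at or near 0 in WT6. Paralogue group 10 summed to 2340, 1716 and 2292 normalized counts per kb in KO1, KO3 and KO7, against 2221, 2568 and 0 in WT2, WT4 and WT6. Group 13 summed to 834, 802 and 457, against 418, 507 and 0.36. The middle groups were mixed. Group 4 was close, at 227, 227 and 211, against 219, 196 and 163, with Hoxb4 and Hoxc4 as the members expressed in all lines. Group 5 was further apart, at 312, 225 and 262, against 155, 153 and 30.7. So was group 6, at 676, 576 and 1179, against 602, 450 and 224. Group 8 was at 325, 271 and 782, against 106, 351 and 349. Group 7 summed to 532, 435 and 213, against 547, 430 and 448, where Hoxb7 supplied nearly all of the level in WT6. Group 9 varied between the 5 other lines as well, at 727, 1444 and 3007, against 426, 1222 and 140 in WT2, WT4 and WT6.

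**Figure D3:**
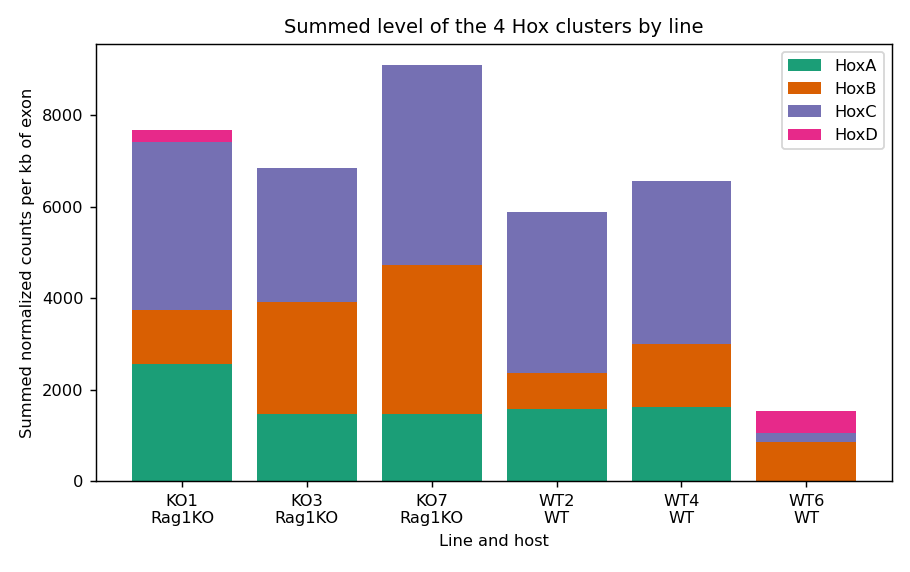
Summed normalized counts per kb of exon of the members of each cluster, stacked, for each line, with lines from Rag1KO hosts on the left and lines from WT hosts on the right. HoxB makes up 35.7% of the bar in KO3 and 35.8% in KO7 but 20.8% or less in KO1, WT2 and WT4, and the short WT6 bar is 55.9% HoxB and 31.2% HoxD.

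The host comparison gave no called member. In limma on log2(normalized count + 1), two-sided and adjusted by Benjamini-Hochberg over 16137 genes, 28 of the 39 members passed the filter on low values and 0 passed an adjusted p of 0.05, against 0.0062% of all genes tested, which is 1 gene. Hoxa2 and Hoxa4 passed the filter without reaching 1 CPM, and Hoxd9 and Hoxd10 reached 1 CPM in a line without passing it. Without WT6 it was again 0 members, and 0.031% of all genes. DESeq2 on the recovered reads also called 0 members, and 0.41% of the 15863 genes to which it gave an adjusted p. Hoxd8 had no p in DESeq2. In limma with all lines, 2 members were at an unadjusted p under 0.05, and 4.67% of all genes. Groups did not overlap for 6 members, all with lines from Rag1KO hosts higher (Hoxa5, Hoxa6, Hoxb3, Hoxb5, Hoxb6 and Hoxc5), and 5.6% of all genes tested did so in that direction. No member was separated with lines from WT hosts higher, and 6.49% of all genes were. Members that passed the filter did so partly through the lines where they were high, so these counts describe the list and do not test it.

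Hoxb5 had the lowest p of the members. It averaged 242 ± 57.5 normalized counts in lines from Rag1KO hosts and 77.2 ± 30.5 in lines from WT hosts (SD, n = 3 each). Its log2 fold change, Rag1KO minus WT, was 1.69 (SE 0.46, limma adjusted p = 0.850). Hoxb6 averaged 499.8 ± 54.8 in lines from Rag1KO hosts and 266 ± 112 in lines from WT hosts, with a log2 fold change of 0.99 (SE 0.39, limma adjusted p = 0.850). Hoxb3 averaged 722 ± 133 in lines from Rag1KO hosts and 473 ± 5.70 in lines from WT hosts, with a log2 fold change of 0.59 (SE 0.24, limma adjusted p = 0.850). Without WT6 the log2 fold changes were 1.36 for Hoxb5, 0.65 for Hoxb6 and 0.60 for Hoxb3, and none passed the adjusted threshold. These 3 differences thus did not rest on that line alone. In that fit the lines from WT hosts are WT2 and WT4, with Xist at 59775 and 32733 normalized counts. Xist was at 15.3 or less in the lines from Rag1KO hosts, so host and sex cannot be told apart there. Hoxb9 had the largest limma log2 fold change of the members, 5.75 (SE 2.66, adjusted p = 0.850), and 3.08 without WT6. With 0 reads in WT6, the Hoxb9 value depended on the method. It was 6.87 in limma with a pseudocount of 0.1, and 2.57 in both edgeR and DESeq2 on recovered reads. Hoxb7 and Hoxb4 were the members with negative values in limma with all lines, -1.06 and -0.15.

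Most other fold changes were far smaller without WT6. In limma with all lines, the log2 fold change (Rag1KO minus WT) was positive for 26 of 28 tested members and 50% of all genes. The median was 2.18 for members and 0.00 for all genes. In both edgeR and DESeq2 on recovered reads, 25 of 28 were positive. There the median was 0.73 for members and -0.02 for all genes. In limma without WT6, 19 of 28 were positive, where 47.8% of all genes were, and the median was 0.38. The direction turned for 9 members when WT6 was left out, namely Hoxb4 and 8 genes of HoxA and HoxC such as Hoxa9 (3.33, then -0.03), Hoxc10 (3.60, then -0.29) and Hoxa7 (2.25, then -0.15). WT6 was the lowest line for 22 of the 28, and for 30.2% of all genes tested. The SD of log2 values over the 6 lines had a median of 2.80 for the members and 0.49 for all genes tested, and 0.53 and 0.41 without WT6. Of 20 members expressed in all 5 other lines, 9 had at most 3 reads in WT6, whereas 235 of 11845 genes expressed in those lines did, or 1.98% of these genes and 1.46% of all genes tested.

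**Figure D4:**
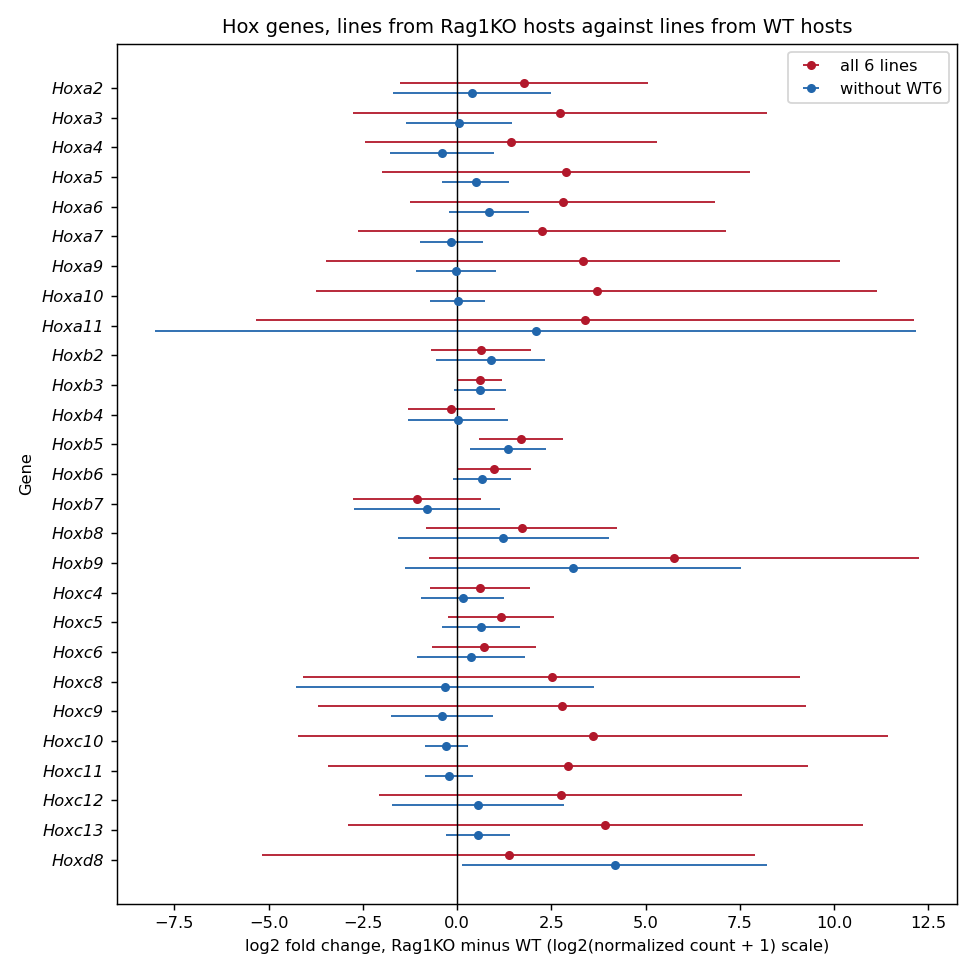
Fitted log2 fold change, Rag1KO minus WT, of the tested members named in the text, with 95% confidence intervals from limma, for all 6 lines and without WT6. Without WT6 most HoxA and HoxC points move to near 0 and their intervals narrow, while Hoxb5 stays above 0 in both fits.

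Transcripts between the Hox genes differed between lines as well. Of 20 listed non-coding transcripts 8 could be tested, 6 higher and 2 lower in lines from Rag1KO hosts, and 0 passed the adjusted threshold (median log2 fold change 1.67). Gm53, a transcript at 96251105 to 96264868 beside Hoxb9 on chromosome 11, had 436, 3402 and 2443 normalized counts in KO1, KO3 and KO7, against 0, 887 and 0 in WT2, WT4 and WT6 (limma log2 fold change 7.32, SE 2.79, adjusted p = 0.850). Mir196a-1, the hairpin locus next to it, had 35.5, 266 and 175, against 0, 71.5 and 0. Both were high in KO3, KO7 and WT4, the lines with high Hoxb9, and absent from the reads of WT2 and WT6. Such reads come from longer transcripts over the locus and do not measure the mature miRNA. Hotairm1, at the anterior end of HoxA, had 24.0, 27.8 and 21.3, against 20.1, 24.1 and 0. The transcripts Hoxa11os, Hoxb3os and Hoxd3os1, named after their values were seen, lie opposite Hox genes. Hoxa11os had 113, 62.6 and 0 in KO1, KO3 and KO7, against 36.3, 0 and 0 in WT2, WT4 and WT6, so it was read in KO1, KO3 and WT2, the lines in which Hoxa11 was expressed. Hoxb3os had 57.5, 39.4 and 63.0, against 38.3, 77.2 and 185, and Hoxd3os1 had 10.5, 2.32 and 2.91, against 0, 0 and 72.2. Whether the counting used strand is not stated, so reads of these and of the genes opposite them may be shared.

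The Hox clusters also encode miRNAs that target Hox mRNAs. miR-196a and miR-196b share a seed, and so do miR-10a and miR-10b; the mature sequences are from RefSeq (GRCm38.p6), with the seed (bases 2 to 8) in capitals.
miR-196a-5p: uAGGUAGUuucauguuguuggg
miR-196b-5p: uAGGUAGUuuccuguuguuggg
miR-10a-5p: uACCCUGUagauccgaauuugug
miR-10b-5p: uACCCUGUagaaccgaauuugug
A match to the miR-196 seed was found in the 3′ UTR of 9 of 39 members, or 23.1%, among them Hoxa7, Hoxa9, Hoxb7 and Hoxc8, and in 6.10% of all 21020 genes with a 3′ UTR. A match to the miR-10 seed was found in 4 members, or 10.3%, and in 12.5% of genes. Median 3′ UTR lengths were 966 bases for members and 961 for all genes. Hoxb8, the known target that miR-196 can cleave, has no perfect seed match but the most extensive pairing of any member, with 21 Watson-Crick pairs and 1 G:U pair over 22 bases. Its site is at chr11:96284888-96284909 (GRCm38, plus strand), and capitals mark the bases opposite the seed.
Hoxb8 site: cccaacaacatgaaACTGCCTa
Across the lines KO3, KO7 and WT4 had the highest values of both Hoxb8 and Mir196a-1. Reads at the Mir196a-1 locus do not measure the mature miRNA, and an effect of miR-196 on Hoxb8 was not tested. The other miRNA loci of the clusters, Mir10a, Mir10b, Mir196a-2, Mir196b and Mir615, had at most 3 reads in every line.

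No listed partner or chromatin regulator of Hox genes was called. Of 9 TALE homeodomain cofactors, the PBX, MEIS and PKNOX proteins that bind DNA with HOX proteins, 7 were higher and 2 lower in lines from Rag1KO hosts, 0 of them called (median log2 fold change 0.15). Meis3 had 1071, 1517 and 1378 normalized counts in KO1, KO3 and KO7, against 835, 1262 and 458 in WT2, WT4 and WT6. Pknox1 had 921, 984 and 1299, against 793, 1453 and 1732. Of 28 Polycomb genes 13 were higher and 15 lower, 0 called, with a median of -0.01. Jarid2, an accessory subunit of Polycomb repressive complex 2, had 677, 949 and 1043, against 487, 651 and 368 (limma log2 fold change 0.84, SE 0.32, adjusted p = 0.850). Suz12, a core subunit of the same complex, had 3660, 2567 and 3578, against 4424, 3838 and 6855 (log2 fold change -0.60, adjusted p = 0.850). Of 16 Trithorax activators and H3K27 demethylases 4 were higher and 12 lower, 0 called, with a median of -0.14. Kdm6a, an X-linked H3K27 demethylase, had 1499, 945 and 1496, against 3189, 2425 and 1914, highest in WT2 and WT4, the lines with Xist, and the part of sex was not tested.

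Retinoic acid is an inducer of anterior Hox genes, and 8 of 9 listed genes of its response could be tested, 6 higher and 2 lower in lines from Rag1KO hosts, 0 called (median log2 fold change 0.31). Cyp26b1, which degrades retinoic acid, had 1482, 834 and 758 normalized counts in KO1, KO3 and KO7, against 152, 163 and 15.8 in WT2, WT4 and WT6, without overlap (limma log2 fold change 3.71, SE 0.95, adjusted p = 0.850). Rarb, a retinoic acid receptor and target, was low, at 31.6, 24.3 and 27.1, against 11.1, 19.3 and 1.76. Of 7 genes of the caudal and Gdf11 inputs, which drive posterior Hox genes in the embryo, 3 could be tested, 1 higher and 2 lower and 0 called, with a median of -0.13. Gdf11 itself had 1818, 3020 and 1629, against 5359, 2303 and 411, lowest in WT6.

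Some genes outside the clusters were read in all 6 lines, WT6 included, and others were silent or low in all lines. Of 14 listed flanking genes 9 could be tested, 4 higher and 5 lower in lines from Rag1KO hosts, 0 called, with a median log2 fold change of -0.06. Calcoco1, beyond the posterior end of HoxC, had 4860, 8447 and 6945 normalized counts in KO1, KO3 and KO7, against 5541, 6263 and 2870 in WT2, WT4 and WT6. Hibadh, beyond the posterior end of HoxA, had 2683, 2579 and 2206, against 2600, 3736 and 2518. Mtx2, beyond Hoxd1, had 1679, 1546 and 1485, against 1677, 2021 and 2608. In WT6 these 3 genes had 2518 or more normalized counts, beside 0 for Hoxc10 and Hoxa10. Evx1 and Evx2, homeobox genes at the posterior ends of HoxA and HoxD, had 0 reads in every line and were named after their values were seen. Skap1, near HoxB, was low, at 38.3, 40.6 and 5.81, against 37.3, 22.2 and 0.

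Of the tested position-dependent transcription factors outside the clusters, 3 were lowest in WT6. Of 10 listed 6 could be tested, 5 higher and 1 lower in lines from Rag1KO hosts, 0 called, with a median log2 fold change of 1.22. Tbx15, which patterns the dermis and limb skeleton, had 7951, 6469 and 14557 normalized counts in KO1, KO3 and KO7, against 6649, 9228 and 130 in WT2, WT4 and WT6. En1, a gene of trunk dermis and ventral limb, had 1505, 1299 and 1430, against 1286, 1371 and 0. Emx2, which acts in the shoulder blade and the urogenital tract, had 1583, 1379 and 2002, against 1832, 1406 and 11.4. All 3 were lowest in WT6 and were 1286 or more in each other line, with Tbx15 highest in KO7. Tbx18, a gene of limb and body wall mesenchyme, had 1685, 990 and 3792, against 2401, 3231 and 1680. Prrx1 and Prrx2, limb mesenchyme genes named after their values were seen, were not lowest in WT6 either. Prrx1 had 23487, 24864 and 38194 in KO1, KO3 and KO7, against 25839, 28409 and 28890 in WT2, WT4 and WT6. Prrx2 had 256, 3317 and 4620, against 1808, 1626 and 793. The limb identity genes Tbx5 (forelimb), Tbx4 and Pitx1 (hindlimb), named after their values were seen, had at most 1 read in every line.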

How the data were processed

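The files hold 1 signal value per gene and line. Per the labels, RNA was purified on RNeasy columns and a TruSeq Stranded kit gave the libraries. The submitters' processing notes name mm10, STAR 2.7.9a, DESeq2, Trim Galore 0.6.6 and FastQC; the read counter and annotation are not given in the sources used here. Each signal value the authors deposited equals whole reads over a median-of-ratios factor: all were whole within 0.01. Recovered reads served for filtering (edgeR filterByExpr) and for the alternatives. limma 3.58.1 with a mean-variance trend was fitted to log2(value + 1) of all 6 lines, Rag1KO minus WT, two-sided, and tested on simulated data. edgeR 4.0.16 and DESeq2 1.42.0 on recovered reads, other scalings, filters and pseudocounts, and leaving out each line were alternatives. Gene IDs were matched to GENCODE M21 (GRCm38), which held 55141 of 55401 and all 39 members and gave positions, exon lengths and 3′ UTRs. Named list genes are up to 4 of lowest p per list unless said otherwise. Some genes, 1 member among them, enter counts and sums but are not reported here by name. Members and lists were chosen with earlier results of these data known.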

Additional observations from a re-analysis of the deposited data

How the results depend on the processing

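No paired analysis was possible because the groups share no replicate numbers. No member passed an adjusted p of 0.05 under any alternative run, and the lowest, 0.0988 for Hoxb5, came from DESeq2. Of the 28 members fitted, those at an unadjusted p under 0.05 numbered 1 with edgeR and 3 with DESeq2, where Hoxd8 had no p. Of all 16137 genes fitted, 717 with edgeR and 1055 with DESeq2 were under that threshold. DESeq2 gave an adjusted p for 15863 of them. Over all genes limma called 1, edgeR 0 and DESeq2 65, and leaving out 1 line gave 0 to 5. Of 361 recomputed member fold changes 13 turned sign, 9 of them without WT6; the cause was not tested. Without WT6 the log2 fold change was -0.030 for Hoxa9. The ranges of log2 fold change on leaving out 1 line were -0.40 to 2.35 for Hoxa4, -0.15 to 3.58 for Hoxa7, -0.03 to 5.20 for Hoxa9, -0.54 to 0.10 for Hoxb4, -0.33 to 4.33 for Hoxc8, -0.40 to 4.48 for Hoxc9, -0.29 to 5.55 for Hoxc10, -0.22 to 4.54 for Hoxc11 and -0.73 to 4.18 for Hoxd8. Hoxd8 was at 1.37 in limma and at -1.39 in both edgeR and DESeq2. Members with 0 reads in WT6 also differed in size between methods. Hoxa10 was at 3.71 in limma, 4.81 with a pseudocount of 0.1, and 0.56 in both edgeR and DESeq2. Hoxc10 was at 3.60, 4.71, 0.33 and 0.32 in the same order. Members without overlap and with lines from Rag1KO hosts higher, 6 with all lines, numbered 7 to 11 on leaving out 1 line, the most without WT4. The share of all genes tested rose too, from 5.6% with all lines to between 9.40% without WT6 and 12.5% without WT4. The median SD of members, 2.80 with all lines, ranged from 0.53 without WT6 to 3.12 on leaving out 1 line, and was 3.75 with a pseudocount of 0.1. The ratio of summed levels, Rag1KO over WT, ranged from 1.08 to 2.35 for HoxA, the highest without WT4, and from 0.0441 to 74.6 for HoxD, the highest without WT6. At 5 CPM or more, expressed members numbered 18, 15 and 14 in KO1, KO3 and KO7, and 12, 14 and 6 in WT2, WT4 and WT6. Library-size and TMM scaling moved the median of all genes by -0.002 and 0.011 on the log2 scale. With 3 lines a group only differences well beyond the spread between lines can be called.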
